A study of Mus musculus with 18 samples.

Results

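Mouse embryos homozygous for the Neo allele of Tbx1 (Neo/Neo) were compared with embryos that carried 1 Neo allele and 1 wild-type allele (Neo/+). All 4 embryos carried Neo, so the groups differed by the last wild-type allele. The comparison used the 4 arrays labelled with these genotypes, 2 per genotype, of 18 arrays and 9 genotypes in the series. Each array held RNA of 1 whole embryo at embryonic day 9.5, on a mixed 129SvEv and C57Bl/6 background. Neo was present throughout the embryo, with no tissue-specific driver. The other arrays held wild-type embryos (WT), heterozygotes for a null allele (+/-) or for a second hypomorphic allele (Neo2/+), and Neo2/Neo2, Neo2/Neo, Neo2/- and -/- embryos. They entered the fit to estimate the spread. Values are log2 probe set signals as the authors deposited them, and a difference is the mean of the Neo/Neo arrays minus the mean of the Neo/+ arrays.

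Tbx1 is a T-box transcription factor that patterns the pharyngeal arches. It is made in pharyngeal endoderm, in the mesoderm that builds the outflow tract of the heart and the branchiomeric muscles, and in the otic vesicle. Embryos without Tbx1 lack the caudal pharyngeal arches and have a small otic vesicle, and in humans a deletion that includes the gene causes DiGeorge syndrome. Neo is a hypomorphic allele, in which a resistance cassette left in the gene lowers its expression.

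The tissue was checked by markers. Of 22 cardiomyocyte markers, 21 lay above the array median in all 4 embryos, as did 17 of 18 primitive erythroid, 19 of 20 endothelial and 18 of 22 neuronal markers. For yolk sac endoderm this held for 7 of 17 markers, and for placenta and decidua for 7 of 14. By Xist, the RNA of the inactive X chromosome, and by Y-linked genes, both Neo/Neo embryos and Neo/+ replicate 1 were male and Neo/+ replicate 2 was female. Replicates correlated at 0.997 in Neo/Neo and 0.995 in Neo/+, and arrays of different genotype among these 4 at 0.994 to 0.996. In the wider series 2 arrays stood apart, +/- replicate 1 and -/- replicate 1. Neither belongs to the comparison, but both enter the estimate of the spread.

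Tbx1 was lower in both Neo/Neo embryos than in both Neo/+ embryos. Its signal was 6.35 and 6.24 in Neo/+ and 5.04 and 5.20 in Neo/Neo. The groups did not overlap, and the gap exceeded the spread within either (SD 0.07 and 0.12, n = 2 each). The difference was −1.18 (SE 0.14, 95% interval −1.48 to −0.88). This was the smallest p of all 45037 probe sets, yet the limma adjusted p was 0.0662, above the threshold of 0.05. An exact permutation test of 2 against 2 arrays gave p = 0.333, two-sided, the smallest that 6 splits allow. The adjusted p was 0.00269 without the 2 arrays that stood apart and 0.000363 with array weights. It was 0.144 with sex as a covariate and 0.42 with these 4 arrays alone. Leaving out Neo/+ replicate 2, so that males were compared with a male, gave −1.23 (adjusted p = 0.382). Without Neo/+ replicate 1 the adjusted p was 0.662, without Neo/Neo replicate 1 it was 1.00 and without Neo/Neo replicate 2 it was 0.577. Without either -/- array it was 0.0365, and without either +/- array 0.00318.

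**Figure D1:**
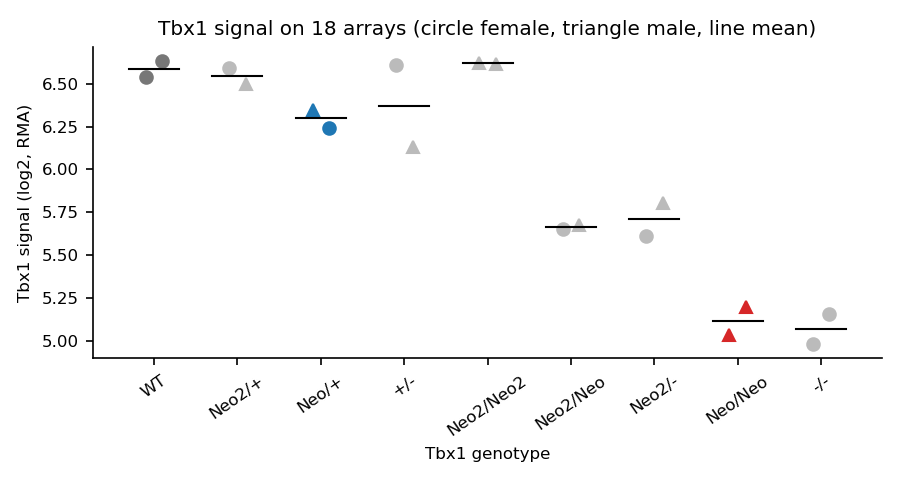
Tbx1 signal (log2, vertical axis) in each of the 18 arrays, by genotype; circles are female embryos, triangles male embryos and lines the mean of 2 arrays. The Neo/Neo arrays (5.04 and 5.20) lie beside the -/- arrays and below both Neo/+ arrays (6.35 and 6.24).

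The Neo/+ mean of Tbx1, 6.30, lay below the WT mean of 6.59. Both Neo/+ arrays lay below both WT arrays (6.54 and 6.63), but the difference of −0.29 did not pass the test (limma adjusted p = 0.687). The Neo/Neo mean, 5.12, was near the -/- mean of 5.07. In order from high to low, the means were 6.62 in Neo2/Neo2, 6.59 in WT, 6.54 in Neo2/+, 6.37 in +/-, 6.30 in Neo/+, 5.71 in Neo2/-, 5.66 in Neo2/Neo, 5.12 in Neo/Neo and 5.07 in -/-. The values of the neighbours Neo/Neo and -/- overlapped, as did those of +/- and Neo/+. RMA values carry no detection call, so the remaining signal in Neo/Neo cannot be told from background. In these bulk samples fewer cells of a type and less RNA per cell cannot be told apart. The file does not say which part of the Tbx1 transcript its single probe set covers relative to the Neo cassette.

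The stretch upstream of the start of Tbx1, where its transcription begins, is shown for its 2 RefSeq starts, with that of Gm6958, the gene with the largest difference on its brightest probe set. Each is 250 bases from the GRCm38.p6 table, 5′ to 3′ on the gene's strand, with a GC box (GGGCGG or CCGCCC) in capitals where present. Tbx1 lies on the minus strand at chr16:18588900-18589149 and chr16:18590672-18590921, and Gm6958 on the plus strand at chr16:55961065-55961314.
Tbx1, start 1: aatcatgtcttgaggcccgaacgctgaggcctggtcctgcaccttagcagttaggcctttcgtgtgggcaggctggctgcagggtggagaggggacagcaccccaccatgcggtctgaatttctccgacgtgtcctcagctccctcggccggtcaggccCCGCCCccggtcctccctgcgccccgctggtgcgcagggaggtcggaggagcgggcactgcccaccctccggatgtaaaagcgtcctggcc
Tbx1, start 2: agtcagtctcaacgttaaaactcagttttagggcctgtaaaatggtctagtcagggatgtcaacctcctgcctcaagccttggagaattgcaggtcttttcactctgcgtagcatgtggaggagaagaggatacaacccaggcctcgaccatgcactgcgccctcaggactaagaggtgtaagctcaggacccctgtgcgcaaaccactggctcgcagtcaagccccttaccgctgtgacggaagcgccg
Gm6958: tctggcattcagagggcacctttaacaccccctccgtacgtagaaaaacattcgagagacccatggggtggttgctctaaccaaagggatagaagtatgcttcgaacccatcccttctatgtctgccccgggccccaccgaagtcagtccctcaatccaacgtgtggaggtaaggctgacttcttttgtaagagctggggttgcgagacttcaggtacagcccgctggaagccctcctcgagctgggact
The first Tbx1 stretch held 1 GC box and was 67.2% G and C. The T-box core GGTGTGA, searched on both strands as GGTGTGA or TCACACC, was in none of the 3. The windows of the table add the first bases after the start. Of 32851 such windows, 3.98% held that core and 35.7% held a GC box. Of the 20 genes named below as leading the comparison, 16 had windows, 25 in all, and 0 of these held the core and 11 a GC box.

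Across all probe sets, 0 of 45037 passed the limma test (0%), and 1466 had an unadjusted p under 0.05 (3.26%). Of those 685 were higher in Neo/Neo (1.52%) and 781 lower (1.73%), so 46.7% were higher. The share was 30.0% with each array centred on its median, 62.2% with sex as a covariate and 37.3% with the brightest probe set of each gene, so the balance of directions depended on the setting. Taken as 1 value per gene, 224 of 18193 genes were higher at an unadjusted p under 0.05 (1.23%) and 349 lower (1.92%). The Neo/Neo arrays lay above both Neo/+ arrays for 2902 genes (16%) and below both for 4782 (26.3%). The median absolute difference over genes was 0.086, against a median SE of 0.14. Under the other settings 0 to 4 probe sets passed, and they came from Tbx1, Gm6958, Lsm8 and 1 probe set without a gene name. The unnamed probe set, chosen after its values were seen, read 8.98 and 8.67 in Neo/+ and 4.99 and 4.98 in Neo/Neo, with a WT mean of 10.43.

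Gm6958, a predicted protein-coding gene on the chromosome of Tbx1, had the largest difference of the 20 named genes. Its signal was 7.78 and 7.11 in Neo/+ and 3.21 and 3.06 in Neo/Neo, with 8.97 and 9.04 in WT. Neo/Neo was thus the lowest and WT the highest of the 3, with no overlap. The difference of −4.32 (SE 0.59) had a limma adjusted p of 0.0966, and of 0.0331 without the 2 arrays that stood apart. A second, dimmer probe set of the gene differed by −1.41. In the order of measured genes along the chromosome it lies 247 genes from Tbx1. In the null line the difference between -/- and +/- was −1.91, and between Neo2/Neo2 and Neo2/+ it was −0.84. The -/- replicates read 6.664 and 8.475, the first of which stood apart, against 9.698 and 9.268 in +/-. The Neo2/Neo2 values, 8.074 and 8.487, overlapped those of Neo2/+, 8.252 and 9.986.

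Lsm8 and Abcb10 were named after their values were seen, for the size of p of a dimmer probe set. A dimmer probe set of Lsm8, a subunit of the ring that binds U6 small nuclear RNA, read 5.76 and 5.62 in Neo/+ and 3.90 and 3.92 in Neo/Neo (difference −1.78, adjusted p = 0.0966). In -/- it differed from +/- by −1.72. The brightest Lsm8 probe set differed by −0.09, so the probe sets of this gene disagreed. Abcb10, a mitochondrial transporter of red cell precursors, was lower on its brightest probe set, with 8.40 and 8.32 in Neo/+ against 7.57 and 7.49 in Neo/Neo. That difference was −0.83 (SE 0.21, adjusted p = 1.00), and dimmer probe sets gave −1.26 and −0.21. In the null line the brightest Abcb10 probe set differed by 0.24.

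The other 8 of the 10 named genes with the smallest p among those lower in Neo/Neo had adjusted p-values of 1.00. Sox11, a transcription factor of neural and mesenchymal progenitors, read 11.80 and 12.51 in Neo/+ and 9.52 and 9.40 in Neo/Neo on its brightest probe set (difference −2.69, SE 0.61). Its 5 other probe sets differed by −0.02, 0.06, 0.16, 0.71 and 1.19, so the low value rests on 1 of 6 probe sets. Mboat2, an enzyme that adds fatty acids to lysophospholipids, read 8.79 and 9.02 against 8.16 and 8.14 (−0.76), while its other probe set differed by −0.10. Fmn1, a formin that nucleates actin filaments and is known from limb development, read 4.52 and 4.48 against 3.98 and 4.04 (−0.49), and its other probe set differed by −0.06 with overlap. Actn3, an actin cross-linker of fast muscle fibres, differed by −0.39 and Btbd19 by −0.59, with −0.25 on its other probe set. E230016M11Rik, 5730419F03Rik and Gm9725, without an assigned function here, differed by −0.44, −0.51 and −0.51, and a second probe set of E230016M11Rik by −0.19.

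The 10 named genes with the smallest p among those higher in Neo/Neo differed by 0.36 to 0.70, each with an adjusted p of 1.00. Stat2, which carries the type I interferon signal to the nucleus, read 5.19 and 5.33 in Neo/+ and 5.85 and 6.08 in Neo/Neo (0.70, SE 0.18), and its second probe set differed by 0.57. The other probe sets of these 10 genes were mostly nearer 0. They gave 0.58, 0.14 and 0.06 for Trim9, 0.27 for Dpp6, 0.16, 0.03 and 0.03 for Tlcd3b, 0.20 for Sbk1, 0.19 for Fat4 and 0.07 for Ckmt1. Trim9, a ubiquitin ligase of neurons that binds netrin receptors, read 5.63 and 5.47 against 6.14 and 5.89 (0.47). Dpp6, an accessory subunit of neuronal potassium channels, read 5.25 and 5.20 against 5.58 and 5.68 (0.41). In each of these 10 genes both Neo/Neo arrays lay above both Neo/+ arrays, beside 16% of all genes. The 10 genes were chosen for their small p, so this is a description. Fat4, an atypical cadherin of planar cell polarity, read 8.59 and 8.32 against 9.00 and 8.89 (0.49). Kcne3, a subunit of potassium channels, differed by 0.64 and by 0.62 between -/- and +/-. Tlcd3b differed by 0.63, Dppa5a, an RNA-binding protein of pluripotent cells, by 0.51, Sbk1 by 0.44, the mitochondrial creatine kinase Ckmt1 by 0.37 and the RNA-binding protein Mex3b by 0.36. Between -/- and +/- Stat2 (0.44) and Dpp6 (0.02) were also positive. The rest of these 10 genes were negative there. They were Sbk1 (−0.45), Fat4 (−0.39), Trim9 (−0.24), Mex3b (−0.20), Tlcd3b (−0.18), Dppa5a (−0.11) and Ckmt1 (−0.04). With sex as a covariate the other 19 named genes beside Tbx1 kept their direction, at 0.88 to 1.10 times the size.

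**Figure D2:**
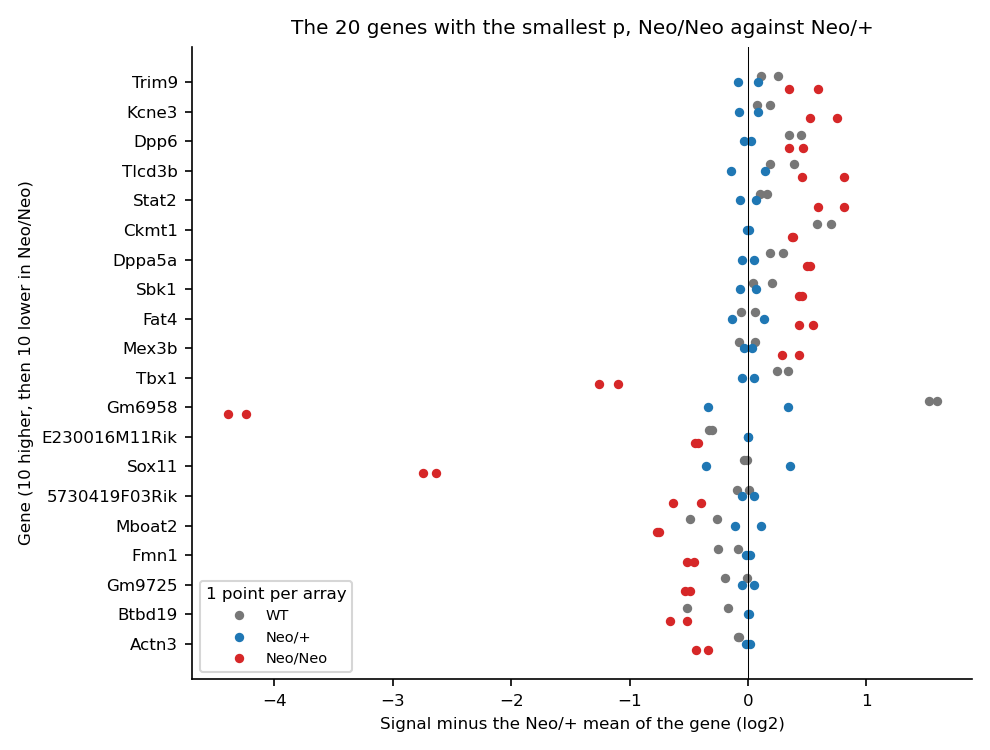
Signal minus the gene's Neo/+ mean (log2, horizontal axis) for the 20 named genes, 1 point per array, in WT (grey), Neo/+ (blue) and Neo/Neo (red). Gm6958 (−4.32), Sox11 (−2.69) and Tbx1 (−1.18) lie farthest from their Neo/+ arrays; the 10 higher genes lie within 0.36 to 0.70 on average.

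The genes linked to Tbx1 in the literature, its candidate targets and partners, were tested one by one. Of 40 listed, 34 were measured and 0 had even an unadjusted p under 0.05, against 3.15% of all genes. Their median difference was −0.04, beside −0.02 over all genes, and single values ran from −0.33 to 0.38. The median was −0.11 when Neo/Neo replicate 2 was left out, −0.0084 for replicate 1 and −0.012 without Neo/+ replicate 1. Without overlap 8 genes lay below Neo/+ and 1 above, beside 26.3% and 16% of all genes. Fgf8, a growth factor of the pharyngeal arches, read 6.83 and 7.0 in Neo/+ and 6.79 and 6.61 in Neo/Neo (−0.21, 95% interval −0.62 to 0.19). Fgf10, a growth factor of the second heart field, read 5.13 and 5.21 against 5.0 and 5.40 (0.04, −0.37 to 0.44). Mef2c, a transcription factor of heart and muscle, read 7.97 and 8.0 against 7.93 and 8.04 (−0.00, −0.24 to 0.23). Aldh1a2, which makes retinoic acid, differed by −0.03 (−0.32 to 0.26). Fgf8 values lay lower in Neo/Neo without overlap, and those of the other 3 genes overlapped. The smallest p in the list belonged to Foxc1 (−0.25), Spry1 (−0.21), Cyp26a1 (−0.33) and Eya1 (−0.15). Over the whole list the intervals reached from −0.96 to 1.02.

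The tissues in which Tbx1 acts were followed by marker lists. Of 12 pharyngeal endoderm markers 0 had an unadjusted p under 0.05, beside 3.15% of all genes, and their median was −0.04. The smallest p there were those of Eya1, Ripply3 (−0.22), Nkx2-1 (0.14) and Hhex (−0.12). Of 17 second heart field genes, 1 had a lower value at that level, Tdgf1, a co-receptor of Nodal, with 3.81 and 3.66 against 3.27 and 3.41 (−0.40). The list's median was −0.03. Of 12 genes of cranial mesoderm and branchiomeric muscle 0 did, with a median of −0.04. Their smallest p belonged to Prdm1 (−0.30). With 3.15% of all genes at that level, counts of 0 or 1 in lists this short cannot show whether these tissues changed.

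Otic vesicle and placode genes leaned lower. Of 15 measured genes 14 had negative differences, 8 lay below Neo/+ without overlap and 0 above, and the median was −0.14. Over all genes 43.4% of differences were positive, 26.3% of genes lay below without overlap and 16% above. The list score was 0.073 and 0.042 in Neo/+, −0.058 and −0.074 in Neo/Neo and −0.076 and 0.071 in WT. Both Neo/Neo scores thus lay within the WT range. Oc90, a protein of the otoconia made by the otic epithelium, was the 1 gene with an unadjusted p under 0.05 (limma adjusted p = 1.00). It read 4.96 and 4.93 in Neo/+, 4.66 and 4.48 in Neo/Neo and 5.27 on average in WT (difference −0.38, SE 0.16). Between -/- and +/- Oc90 differed by −0.48, and between Neo2/Neo2 and Neo2/+ by −0.00. Other members were Spry1 (−0.21), Eya1 (−0.15) and Neurog1 (0.25), the 1 positive gene, which drives the neurons of the ganglia.

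Neuronal genes had the highest median of the 31 lists, 0.46, with positive differences for 20 of 22 genes. At an unadjusted p under 0.05, 4 were higher and 0 lower, beside 1.23% and 1.92% of all genes. Without overlap 7 lay above Neo/+ and 0 below, beside 16% and 26.3% of all genes. Ina, a neuronal intermediate filament, read 8.45 and 7.53 in Neo/+ and 9.30 and 8.59 in Neo/Neo (0.95, SE 0.37). Elavl3, an RNA-binding protein of new neurons, read 8.19 and 7.67 against 8.89 and 8.28 (0.65). In both genes the Neo/+ replicates differed from each other by nearly as much as the groups, and the groups did not overlap. Crmp1, a protein of growing axons, read 9.17 and 8.98 against 9.71 and 9.37 (0.46), and Chl1, a neural cell adhesion molecule, 4.04 and 3.84 against 4.58 and 4.25 (0.47). The mean score of the list, its deviation from the mean over 18 arrays, was 0.07 and −0.54 in Neo/+, 0.48 and −0.08 in Neo/Neo and 0.16 and 0.18 in WT. The scores of the groups overlapped, and the lowest embryo was the female Neo/+ replicate 2. Without it the median was 0.20, with 16 of 22 genes positive, and without Neo/+ replicate 1 it was 0.79. Without Neo/Neo replicate 1 it was 0.20 and without Neo/Neo replicate 2 it was 0.75. Neural progenitor genes had a median of 0.20 over 20 genes, which was 0.32 when Neo/Neo replicate 2 was left out, 0.098 for replicate 1 and 0.096 without Neo/+ replicate 2. Dbx1, a homeobox gene of the ventral spinal cord, read 7.78 and 7.43 against 8.21 and 7.96 (0.48).

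Yolk sac endoderm markers had a median of 0.18 over 17 genes. At an unadjusted p under 0.05, 4 were higher and 0 lower, beside 1.23% and 1.92% of all genes, and 0 passed the adjusted test. Without overlap 2 lay above Neo/+ and 2 below, beside 16% and 26.3% of all genes. The median was 0.03 when Neo/Neo replicate 1 was left out, 0.51 for replicate 2, 0.40 without Neo/+ replicate 1 and 0.098 without Neo/+ replicate 2. These genes encode proteins that the visceral yolk sac secretes before the liver forms. Afp, alpha-fetoprotein, read 10.00 and 8.06 in Neo/+ and 11.15 and 9.78 in Neo/Neo (1.43, SE 0.62). Ttr, transthyretin, read 7.60 and 6.19 against 8.40 and 7.60 (1.10), Fgb, a fibrinogen chain, 5.23 and 3.87 against 5.79 and 5.31 (1.00), and Rbp4, the carrier of retinol, 7.28 and 6.13 against 7.89 and 7.18 (0.83). In Afp, Ttr and Rbp4 the second Neo/Neo embryo lay within the range of the Neo/+ embryos. Neo/+ replicate 2 was the lowest of the 4 in each of these genes. The list score was 0.03 and −0.49 in Neo/+, and 0.30 and −0.09 in Neo/Neo. Both this score and the neuronal score were lowest in Neo/+ replicate 2, and the part of the yolk sac signal in other differences was not tested.

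Presomitic mesoderm and somite genes had the lowest median, −0.18, with 19 of 22 genes negative. The median was −0.084 without Neo/Neo replicate 1 and ranged from −0.22 to −0.15 without each of the other 3 arrays. Without overlap 6 genes lay below Neo/+ and 3 above, beside 26.3% and 16% of all genes. The list score was −0.04 and 0.02 in Neo/+, −0.21 and −0.12 in Neo/Neo and −0.22 and −0.06 in WT. Both Neo/Neo scores thus lay within the WT range, and both Neo/+ scores lay above it. Cdx1, a homeobox gene of the tail bud, read 4.84 and 4.98 in Neo/+ and 4.37 and 4.23 in Neo/Neo (−0.61, SE 0.24) and was the 1 gene with an unadjusted p under 0.05. Wnt3a, a signal of the same region, read 6.84 and 6.63 against 6.15 and 6.5 (−0.41), and Meox1, a somite gene, 8.82 and 9.10 against 8.44 and 8.59 (−0.45). In all 3 the groups did not overlap. Lin28a, which marks early developmental timing, read 10.74 and 11.10 against 9.66 and 10.68 (−0.75, SE 0.47). The WT mean, 10.16, lay between the Neo/Neo values. This was the lowest difference of the developmental timing list, whose 15 measured genes had a median of −0.06, with 4 positive. Cell cycle genes were slightly lower, with a median of −0.07, 25 of 29 negative and 18 below Neo/+ without overlap, where 26.3% of all genes lay below. Its smallest p was that of Aurka (−0.20), a mitotic kinase. The cell cycle score was 0.064 and 0.054 in Neo/+, 0.004 and −0.011 in Neo/Neo and −0.008 and 0.005 in WT. The Neo/Neo scores were thus near WT, and the Neo/+ scores lay above both.

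**Figure D3:**
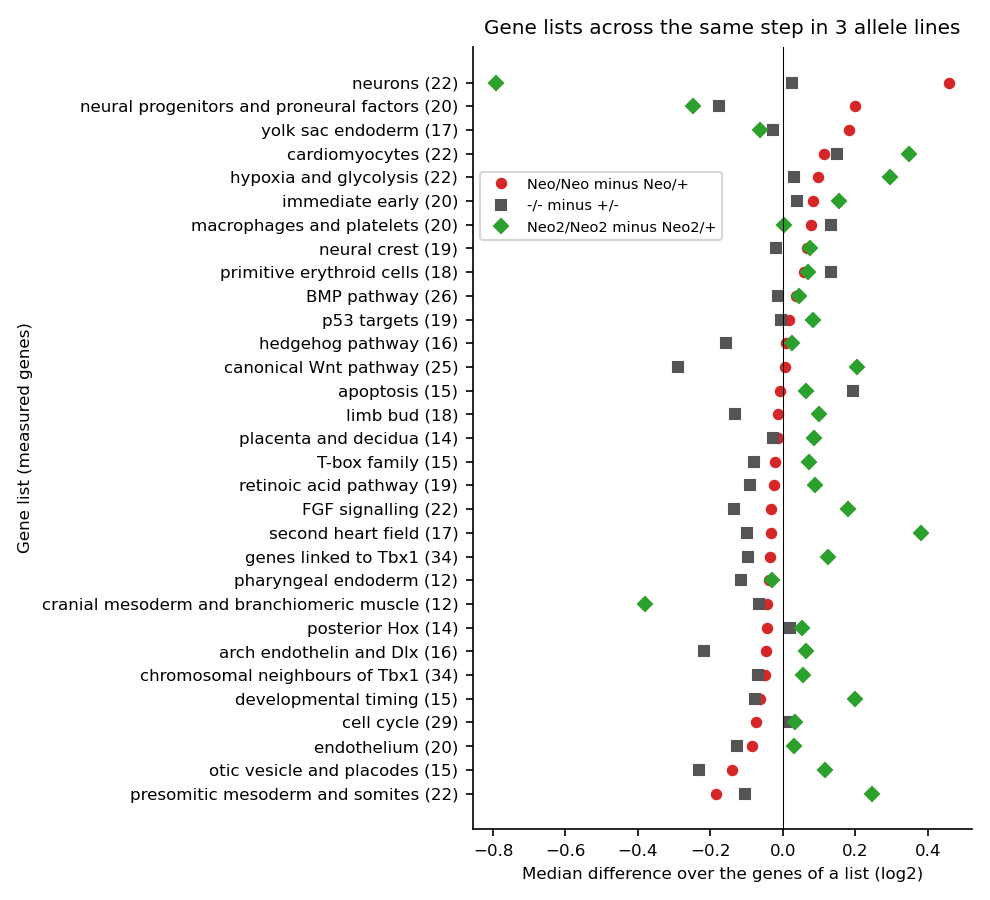
Median difference (log2, horizontal axis) over the measured genes of each of 31 lists, for Neo/Neo minus Neo/+ (red circles), -/- minus +/- (grey squares) and Neo2/Neo2 minus Neo2/+ (green diamonds). In the Neo line the medians run from −0.18 for presomitic mesoderm and somites to 0.46 for neurons.

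Over the 31 lists, 522 of 567 listed genes were measured. Of these 0 passed the adjusted test, and 15 were higher and 10 lower at an unadjusted p under 0.05. That is 4.79% of the list genes, beside 3.15% of all genes. In neural crest 1 of 19 genes did, Sox8 (4.81 and 4.76 against 4.24 and 4.36, −0.49), and the median was 0.07. Among 20 macrophage and platelet genes Csf2rb, a cytokine receptor chain, read 6.65 and 6.40 against 6.04 and 5.54 (−0.74), and the difference in -/- against +/- was −0.73. It went against its list, in which 14 genes were positive and the median was 0.08. In FGF signalling Fgfr3 was higher (8.64 and 8.45 against 8.95 and 8.84, 0.36), in the retinoic acid pathway Rdh10 was lower (−0.29), and in limb bud and BMP pathway Grem1 was lower (−0.45). List medians were −0.03 for FGF signalling, −0.02 for retinoic acid, −0.01 for limb bud and 0.04 for BMP. Of 26 BMP genes 19 were positive. Of 14 posterior Hox genes Hoxb13 (0.30) and Hoxd12 (0.40) were higher, and of 22 hypoxia genes Vegfa (0.28) and Bnip3 (0.29), beside 1.23% of all genes. The Hox list as a whole had 6 positive genes and a median of −0.04. The hypoxia list had 16 positive genes and a median of 0.10. Aen of the p53 targets (−0.25) and Casp8 of the apoptosis genes (−0.27) were lower. Of 19 p53 targets, however, 12 were positive, with a median of 0.02, and of 15 apoptosis genes 7 were, with a median of −0.01. In cardiomyocyte (median 0.11), endothelial (−0.08), primitive erythroid (0.06), placenta and decidua (−0.01), arch endothelin and Dlx (−0.05), hedgehog (0.01), canonical Wnt (0.01, with a mean of −0.02) and immediate early lists (0.08) 0 genes had an unadjusted p under 0.05. The medians of the hedgehog, canonical Wnt, p53 and apoptosis lists change sign with the scaling. With sex as a covariate those of the posterior Hox, placenta and decidua, T-box, hedgehog and canonical Wnt lists change sign. Of 15 T-box genes Tbx1 alone had an unadjusted p under 0.05; the next was Tbx15 (0.46).

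The genes beside Tbx1 on its chromosome were counted over the 20 measured genes on either side, 40 in all. An unadjusted p under 0.05 was found in 1 of them, Abcf3 (−0.21, named after its value was seen), beside 3.15% of all genes. Of the 40, 15 lay below Neo/+ without overlap and 6 above, beside 26.3% and 16% of all genes. Their median was −0.05, and they ran from −0.25 for Prodh, a proline-degrading enzyme, to 0.20 for Car15, a carbonic anhydrase. A separate list named genes of the wider region around Tbx1, of which 34 were measured, with a median of −0.05 and a mean of 0.0024. Its smallest p was that of Lztr1, which is not among the 40 and read 9.09 and 9.00 in Neo/+ and 9.31 and 9.30 in Neo/Neo (0.26).

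One stretch of chromosome 12 held several of the lower genes. In windows of 40 consecutive measured genes, 17241 in all, the largest number of genes with a probe set lower at an unadjusted p under 0.01 was 5. It was reached by 10 overlapping windows, all on chromosome 12, and the highest number on any other chromosome was 3. For probe sets higher in Neo/Neo the largest number was 4, reached by 11 windows, all on chromosome 8, the first from Hsbp1 to Banp. The window from 5730507C01Rik to Acp1 was chosen after its values were seen and holds 2410018L13Rik, Mboat2, Sox11, Adi1 and Acp1. Of its 95 probe sets 60 were lower and 35 higher, beside 53.1% lower among all probe sets, and their median was −0.06. Adi1, an enzyme of methionine salvage, differed by −1.37 and −0.61 on dimmer probe sets and by 0.43 on its brightest. Acp1, a small phosphatase, differed by −0.84 on 1 probe set and by −0.06 on its brightest. In Mboat2, Sox11, Adi1 and Acp1 the other probe sets thus lay nearer 0 or had the other sign. In 2410018L13Rik both probe sets were lower on average (−0.75 and −0.51). On the brightest, with −0.51, the groups overlapped, with 5.419 and 6.495 in Neo/+ and 5.56 and 5.329 in Neo/Neo. In the null line the median of the stretch was −0.03 and in the Neo2 line −0.01. The probe sets with the lowest values of these 5 genes also differed between the Neo2/Neo embryos. Replicates 1 and 2 read 9.83 and 12.32 for Sox11, 6.41 and 7.42 for Adi1 and 8.08 and 8.64 for Mboat2. They read 5.22 and 5.75 for 2410018L13Rik and 6.62 and 7.10 for Acp1. Low values here thus also varied between embryos of 1 genotype.

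**Figure D4:**
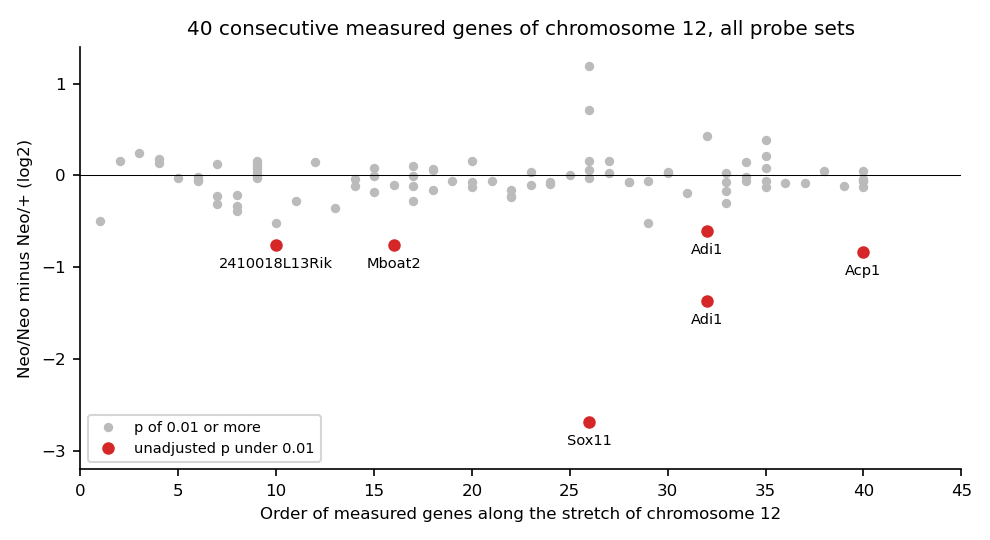
Neo/Neo minus Neo/+ (log2, vertical axis) for the 95 probe sets of 40 consecutive measured genes of chromosome 12, in gene order; red points have an unadjusted p under 0.01. The 6 red points are all below 0, from −0.61 to −2.69. Grey points of Mboat2, Sox11, Adi1 and Acp1 lie nearer 0 or above it, and that of 2410018L13Rik lies at −0.51.

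The same step, from 1 wild-type allele to none, was set against that in the null line (-/- against +/-) and the Neo2 line (Neo2/Neo2 against Neo2/+), which share no arrays with it. Tbx1 differed by −1.30 in the null line and by 0.07 in the Neo2 line. The Neo step minus the null step was 0.12 (limma interaction, adjusted p = 0.839). The Neo step minus the Neo2 step was −1.25 (adjusted p = 0.156, and 0.0233 without the 2 arrays apart). Both -/- embryos were female and both Neo2/Neo2 embryos male, and +/- and Neo2/+ each held 1 of each sex. Across 18193 genes the Neo differences correlated with the null differences at r = −0.07 (−0.23 without the 2 arrays apart) and with the Neo2 differences at r = −0.29. These are descriptions over genes, which are not independent, from arrays normalized together.

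No probe set passed the test of the difference between the Neo and null steps (0 of 45037 in limma, 0%; 4886 at an unadjusted p under 0.05, 10.8%). Without -/- replicate 2 the count was 2435 and without +/- replicate 2 it was 4416; each of these fits keeps an array that stood apart as the only one of its genotype. The smallest p belonged to Zfhx3, a neuronal transcription factor (0.50 in Neo, −0.72 in null), Scarf2 (0.21 and −0.66), Fgfr3 (0.36 and −0.61), Sbk1 (0.44 and −0.45) and Igdcc4 (0.33 and −0.53). In the other direction they belonged to Iigp1 (−0.18 and 0.70), Mns1 (−0.53 and 0.58), Ppil3 (−0.22 and 0.61), Hsd17b11 (−0.14 and 0.53) and A930024E05Rik (−0.09 and 0.58).

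Against the Neo2 step also 0 of 45037 passed in limma (0%), with 5189 at an unadjusted p under 0.05 (11.5%). When both arrays that stood apart were left out 727 passed (1.61%), 544 with a higher and 183 with a lower step in Neo. With the 8 arrays of the genotypes compared 372 passed, and with array weights 1482. Among those with the smallest p, each of which passed in that fit, were Fat4 (0.49 in Neo, −0.79 in Neo2), Nfib (0.69 and −1.47), a transcription factor of brain and lung, Zfhx3 (0.50 and −0.71), Ly6h (0.38 and −0.60) and Stx1a (0.20 and −0.58), a protein of synaptic vesicle fusion. Those with a lower step in Neo were Tbx1, Kcnq5 (−0.67 and 1.97), Tdgf1 (−0.40 and 0.61), Apoh (−0.10 and 0.60) and Kcnk1 (−0.28 and 0.63). Of the 22 neuronal genes 5 passed in that fit, all with a higher step in Neo. The neuronal median was 0.46 in Neo, 0.03 in null and −0.79 in Neo2. Presomitic genes had medians of −0.18, −0.11 and 0.24, and otic genes −0.14, −0.23 and 0.12.

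The last question was whether loss of the wild-type allele altered what already distinguished Neo/+ from WT. In limma 14 probe sets differed between Neo/+ and WT (0.0311%), 12 lower (0.0266%) and 2 higher (0.00444%), of which 11 carry a gene name. Their Neo/Neo minus Neo/+ differences ran from −0.15 to 0.39 with a median of 0.07, and all 14 intervals held 0. The Neo/+ arrays that chose these probe sets also enter that difference, so it is a description. The intervals reached from −0.79 to 1.21. The groups overlapped in 9 of them. The called probe set was the brightest of its gene for B9d1, 1500015A07Rik, 2010315B03Rik and Ang. For Tia1, Prdx2, Ndel1, Actb, Lztfl1, Zfp945 and Lars2 it was a dimmer one, and the brightest was not among the 14. The values below are those of the called probe sets. Tia1, an RNA-binding protein of stress granules, fell from 7.95 and 8.0 in WT to 4.15 and 4.26 in Neo/+ (adjusted p = 0.00982) and read 4.67 and 4.52 in Neo/Neo. Prdx2, a peroxidase abundant in red cells, fell from 10.18 and 10.12 to 8.32 and 7.91 (0.0185) and read 8.51 and 7.93 in Neo/Neo. Ndel1, a regulator of dynein, fell from 6.70 and 6.57 to 4.77 and 4.38 (0.0129) and read 4.68 and 4.49. The Neo/Neo values of Prdx2 and Ndel1 overlapped those of Neo/+, and those of Tia1 lay slightly above. Neo2/Neo embryos, which also carry Neo, read 8.07 and 8.22 for Tia1 and 10.11 and 10.14 for Prdx2, near WT. Their Ndel1 mean was 5.89, between Neo/+ (4.57) and WT (6.63). Their Actb mean was 9.55, nearer Neo/+ (9.35) than WT (10.00). The reason for these values was not tested. The other named genes lower in Neo/+ were Lztfl1, Zfp945, 2010315B03Rik, 1500015A07Rik, Ang, Lars2 and Actb, and B9d1, a ciliary transition zone protein, was higher (0.78). Both WT embryos were female.

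**Figure D5:**
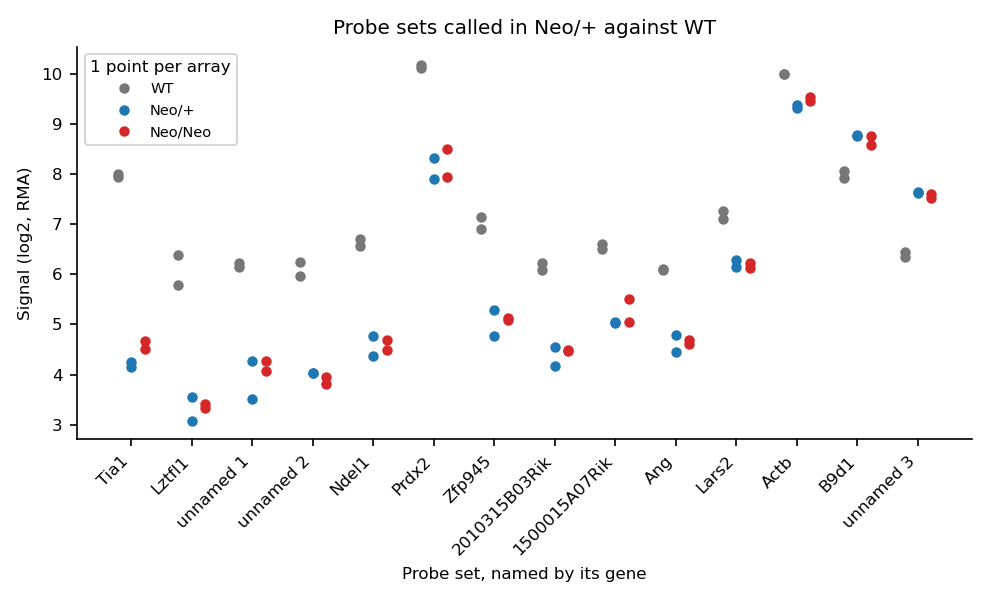
Signal (log2, vertical axis) of the 14 probe sets that differed between Neo/+ and WT, 1 point per array, in WT (grey), Neo/+ (blue) and Neo/Neo (red). Neo/Neo points sit beside the Neo/+ points in each, with differences between −0.15 and 0.39.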

How the data were processed

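RNA of whole embryos, 6 ug per array, was labelled and hybridised to Affymetrix mouse arrays, per the labels' protocols. The authors deposited log2 values for 45037 probe sets. Per the submitters' processing notes they come from affy and RMA, with versions not given in the sources used here. No rescaling or filter was applied. RMA equalises arrays, so shifts shared by all genes are not seen. Gene names came from the platform annotation. A gene is represented by its brightest probe set, by the mean of all arrays.

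Differences were tested two-sided with limma 3.58.1 in R 4.3.3 (lmFit and eBayes) on 9 genotype means, with 9 residual and 3.63 prior degrees of freedom and Benjamini-Hochberg adjustment at 0.05. Interaction contrasts compared the step between allele lines. The fit was tested on simulated data. The number of arrays limits the precision, and each group held 2 embryos. Alternatives changed the samples, covariates, weights, filter or scaling. Named genes were, where fewer than 10 passed in a direction, the 10 with the smallest p, with up to 4 per gene list and 5 per direction for interactions. Where a list had fewer past an unadjusted p of 0.05, examples are those with the next smallest p, except Fgf10, Mef2c and Aldh1a2, chosen for their known role with their values known. Members and lists were chosen with earlier results of these data known.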

Additional observations from a re-analysis of the deposited data

How the results depend on the processing

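The count of 0 probe sets was also 0 with sex as a covariate, with an intensity trend and among probe sets with a mean above 6. It was 1 with the 4 arrays alone, with arrays centred on the median, with quantile normalization repeated and with the brightest probe set per gene, 3 without the 2 arrays that stood apart and 4 with array weights. Leaving out each array gave 0 to 3. The Tbx1 difference kept its direction. It was −1.18 without the 2 arrays (adjusted p = 0.00269), with array weights (0.000363), with quantile normalization repeated (−1.18, 0.0266) and with the brightest probe set per gene (0.0243), and −1.21 centred on the median (0.0113). Leaving out each array gave −1.26 to −1.10. Tbx1, with a mean of 6.00, was not tested above the filter of 6.

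With the replicate block, 0 probe sets passed, 1535 had an unadjusted p under 0.05 and Tbx1 had an adjusted p of 0.169. Deviations of same-numbered arrays correlated at 0.14, which with 2 pairs does not establish a pairing. The test against the Neo2 step gave 372 calls with 8 arrays, 727 without the 2 arrays, 1482 with weights and 0 to 4 leaving out each array. Against the null step leaving out each array gave 0 to 4416. Among list genes 1 call, Tbx1, appeared without the 2 arrays, with weights, with both scalings and with the brightest probe set, and 0 to 1 leaving out each array. The median of the 14 probe sets was 0.0075 with sex as a covariate and −0.020 to 0.11 leaving out each array. List medians and the 14 probe sets were run under these alternatives after seeing the data. Neuronal medians ranged from 0.20 to 0.79 leaving out each array, and yolk sac medians from 0.03 to 0.51. The cause of these changes was not tested.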
